A study of Arabidopsis thaliana with 12 samples.

Results

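The seedlings that received no bacteria were examined here, and the libraries labelled Atg3bp1 mock were compared with those labelled WT mock. They were chosen by the deposited labels for genotype and treatment, and they make up 6 of the 12 libraries of the study, 3 per label. The study sequenced RNA of whole Arabidopsis seedlings of ecotype Columbia-0, grown on half-strength medium for 14 d. WT carries no mutation, and the mutant is a T-DNA insertion line in AtG3BP1, which the study calls Atg3bp1-1 while the labels give only Atg3bp1. A single insertion line was sequenced, so the gene and anything else that this line carries cannot be told apart. The other 6 libraries came from seedlings of the same genotypes at 24 h after spraying with Pst DC3000 hrcC-, a Pseudomonas syringae strain that cannot inject effectors. The question of the mock comparison is which genes differ between the genotypes before any bacterium is present. The study speaks of independent experiments, and the labels do not say which replicate came from which.

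G3BP proteins bind RNA and pair a nuclear transport factor 2 domain with an RNA recognition motif. In mammals G3BP1 is a scaffold of stress granules, the cytoplasmic bodies in which untranslated mRNAs gather. Some of the genes described below belong to the carbon starvation response of plants. When sugar runs short, as in prolonged darkness, the SnRK1 kinase and its partner bZIP factors raise genes that store nitrogen as asparagine, break down branched-chain amino acids and proline, recover sugars from the cell wall and export or reabsorb sugar, while genes for ribosomes and growth are held back.

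The deposited values are FPKM, fragments scaled to transcript length and library size. In the 6 mock libraries they summed to between 435476 and 476700. FPKM do not give the number of fragments, but low values fall on steps of whole fragments, and these steps put the depth of the mock libraries between 0.549 (Atg3bp1 mock replicate 3) and 1.63 (WT mock replicate 3) of the geometric mean of all 12. A single locus, AT2G01021, annotated beside the ribosomal RNA genes of chromosome 2, took 8.33%, 5.55% and 4.03% of the sum in WT mock replicates 1, 2 and 3 and 11.97%, 11.37% and 12.57% in Atg3bp1 mock replicates 1, 2 and 3. The mean difference was 5.99 percentage points and the groups did not overlap (exact two-sided permutation test, p = 0.1, the smallest that 3 against 3 allows). Its part in the results was not tested, and each library was rescaled to a common upper quartile, by factors of 0.912, 1.11 and 1.15 in WT mock and 0.986, 1.00 and 0.902 in Atg3bp1 mock. All fold changes below are on the log2 scale of rescaled FPKM plus 1, which understates changes of low genes, while FPKM are given as deposited.

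AtG3BP1 (AT5G48650, chromosome 5, 19726672 to 19729764 of TAIR10.1) was examined first because it checks the labels. It had 0.354, 0.0179 and 0.221 FPKM in WT mock replicates 1, 2 and 3. It had 16.6, 13.5 and 11.4 FPKM in Atg3bp1 mock replicates 1, 2 and 3. The transcript was thus near 0 under the label WT and clearly present under the label Atg3bp1, which goes against the labels of a knockout. The sprayed libraries had the same pattern, with 0.426, 0.354 and 0.311 FPKM in WT hrcC and 18.4, 16.0 and 12.5 FPKM in Atg3bp1 hrcC. Its log2 difference was 3.68 (SE 0.17, limma adjusted p = 9.31e-07), and it was called under each of the settings tried, with values between 3.57 and 5.81. Libraries are therefore named by their label throughout, and each direction between genotypes rests on the labels as deposited. Were the labels exchanged, every direction given here would be reversed, and whether they were was not tested. Of the other 7 genes of the family, 6 passed the expression filter and none was called. AT2G03640 had 14.4, 28.3 and 22.2 FPKM in WT mock and 25.9, 26.7 and 29.7 FPKM in Atg3bp1 mock. AT5G43960 had 7.22, 9.23 and 7.83 FPKM in WT mock and 4.32, 5.06 and 3.66 FPKM in Atg3bp1 mock, and its adjusted p of 0.0668 in limma missed the threshold. AT3G07250, the member below the filter, was listed under 0.1 FPKM in all 6 libraries.

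Over 17158 tested genes, limma called 158 higher and 10 lower in the libraries labelled Atg3bp1 mock, at an adjusted p not above 0.05 and at least 2-fold apart. These are 0.921% and 0.0583% of the genes tested. In each of the 168 called genes the 3 libraries of one label lay apart from the 3 of the other. Such separation alone was common, since 15.4% of all tested genes had every Atg3bp1 mock library above every WT mock library, and 12.3% had every one below. The increases had a median of 1.43 on the log2 scale, and 28 genes rose by at least 2 on it. Most adjusted p-values were close to the threshold, with a median of 0.0332 among the called genes in limma. The WT libraries were the more variable ones. The median SD of the genes called higher was 0.37 on the log2 scale in WT mock and 0.19 in Atg3bp1 mock, and WT mock replicate 1 was the lowest WT library for 114 of the 158. The Atg3bp1 mock mean lay a median of 1.73 above WT mock replicate 1, 1.28 above replicate 2 and 1.27 above replicate 3. Without WT mock replicate 1 limma called 50 genes higher and 8 lower, 44 and 4 of them among the genes above. Leaving out Atg3bp1 mock replicate 1, 2 or 3 left 8, 5 or 18 genes higher and 1, 2 or 2 lower, and leaving out WT mock replicate 2 or 3 left 67 or 161 higher and 7 or 23 lower. Leaving out a sprayed library, which changes only the shared spread, gave between 35 and 314 higher. The 6 genes called without each of the 12 libraries in turn were AtG3BP1, AK-HSDH II, AT1G25400, AT4G37220, OCT2 and PAP85.

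**Figure D1:**
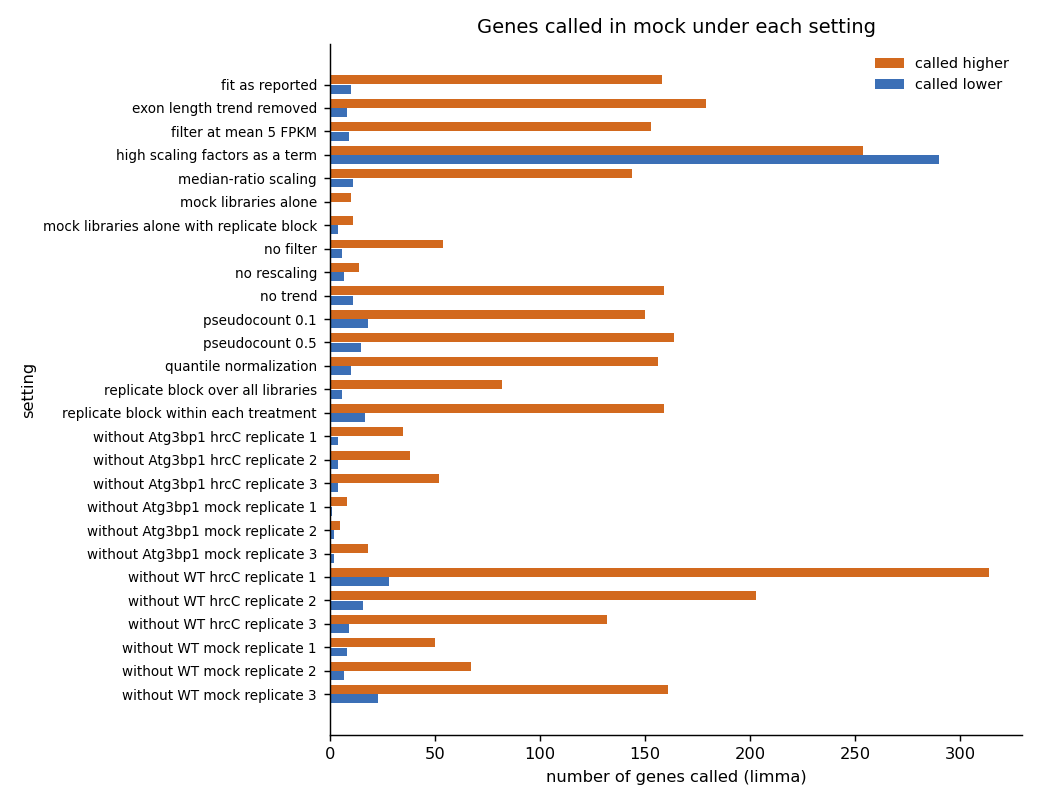
Number of genes called by limma in mock (x axis) under the fit as reported and under each alternative setting (y axis), with genes higher in the libraries labelled Atg3bp1 in orange and lower ones in blue. The bars of the reported fit stand at 158 and 10, those without Atg3bp1 mock replicate 2 at 5 and 2, and those with high scaling factors as a term at 254 and 290.

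The replicate numbers of the mock libraries were checked for pairing, because libraries of both labels numbered 1 or 3 varied together. For number 2 this was not clear. With the number as a replicate block within each treatment, 159 genes were called higher and 17 lower, of which 120 and 8 were among the genes above. One block shared by mock and sprayed libraries gave 82 and 6. Of the called genes named in the text, TPS9, PDS1, SOBIR1, STP14, INT1, AT1G62660, LRX3, FER, LYK4, PEN3, AT2G30600, AT4G20830, MT1C and AT3G14190 lost the call with the block within each treatment, with adjusted p between 0.0504 and 0.0627 in limma. The split between higher and lower calls depended on whether libraries were rescaled, and 94.0% of calls were higher after rescaling. Median-ratio scaling gave 144 higher and 11 lower, and quantile normalization gave 156 and 10. Without rescaling 14 genes were higher and 7 lower, or 66.7% higher, and the median of all genes stood at -0.12. Without rescaling none of the genes called in the lists of starvation, amino acid breakdown, sugar transport, microbe-triggered immunity and ethylene was called. With a term for the 3 libraries of the highest scaling factors (replicates 2 and 3 of WT mock and 1 of WT hrcC), 254 genes were higher and 290 lower. All 3 carry the label WT, so the term overlaps with the label and this fit cannot separate scaling from genotype.

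Among the called genes, the largest increases after AtG3BP1 were in genes of amino acid metabolism. ASN1 (AT3G47340, chromosome 3, 17437840 to 17441431) encodes glutamine-dependent asparagine synthetase. It had 2.26, 21.9 and 11 FPKM in WT mock replicates 1, 2 and 3 and 73.2, 65.6 and 66.4 FPKM in the corresponding libraries labelled Atg3bp1 mock. The groups did not overlap, and WT mock replicate 1 was far below the other WT libraries. Its log2 difference was 2.98 (SE 0.53, limma adjusted p = 0.0324). BCAT-2 (AT1G10070, chromosome 1, 3288087 to 3290471) encodes a branched-chain aminotransferase and had 0.563, 12.6 and 1.88 FPKM in WT mock. In Atg3bp1 mock it had 30.8, 26.5 and 19.5 FPKM, a log2 difference of 2.86 (SE 0.63, limma adjusted p = 0.049). ERD5 (AT3G30775, chromosome 3, 12448636 to 12451556) is the proline dehydrogenase of mitochondria, the first enzyme of proline breakdown. It had 7.25, 47.1 and 57.1 FPKM in WT mock and 177, 203 and 170 FPKM in Atg3bp1 mock, a log2 difference of 2.82 (SE 0.52, limma adjusted p = 0.0324). For all 3 genes WT mock replicate 1 was the lowest of the 6 libraries, and none of the 3 calls held without each library in turn, the highest adjusted p being 0.123 for ASN1, 0.166 for BCAT-2 and 0.128 for ERD5 in limma.

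**Figure D2:**
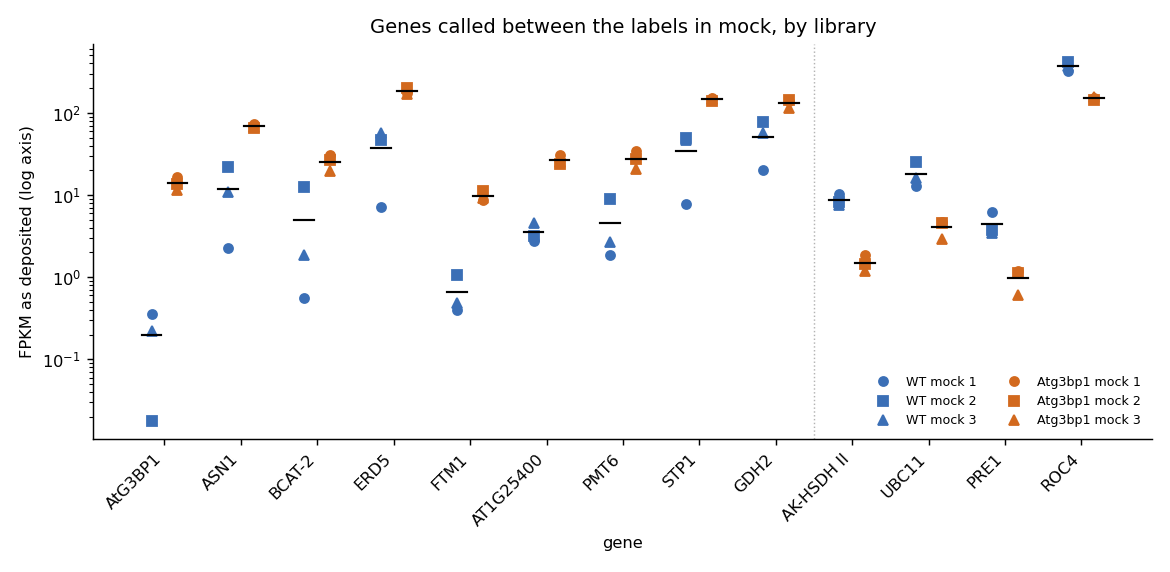
FPKM as deposited (y axis, log scale) of 9 genes called higher and, right of the dotted line, 4 called lower in the libraries labelled Atg3bp1 mock, by gene (x axis). Each symbol is a library (circle, square and triangle for replicates 1, 2 and 3), blue for WT mock and orange for Atg3bp1 mock, and black bars are means of 3. The groups do not overlap in any of these genes, and the WT mock replicate 1 circle lies far below the other blue symbols for ASN1, ERD5 and STP1, the last at 7.84 FPKM.

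Because these 3 genes moved together, the 250 bases before their annotated starts are shown, read from TAIR10.1 on the strand of each gene. The windows are chr3:17441432-17441681 (minus strand) for ASN1, chr1:3287837-3288086 (plus strand) for BCAT-2 and chr3:12451557-12451806 (minus strand) for ERD5. Capitals mark a match on either strand to ACTCAT, the proline-responsive element bound by bZIP factors, to CACGTG, the G-box, or to TATCCA, an element known from sugar-repressed promoters of rice amylases.
ASN1: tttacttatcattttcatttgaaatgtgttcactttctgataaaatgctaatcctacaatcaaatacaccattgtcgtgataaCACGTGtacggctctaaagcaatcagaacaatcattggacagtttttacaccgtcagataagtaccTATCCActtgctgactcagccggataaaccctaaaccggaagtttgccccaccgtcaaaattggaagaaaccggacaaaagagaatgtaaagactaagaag
BCAT-2: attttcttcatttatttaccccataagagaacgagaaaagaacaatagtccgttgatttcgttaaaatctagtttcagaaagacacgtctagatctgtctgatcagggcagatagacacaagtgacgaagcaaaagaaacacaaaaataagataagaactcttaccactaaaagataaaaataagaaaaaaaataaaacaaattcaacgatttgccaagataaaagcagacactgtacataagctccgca
ERD5: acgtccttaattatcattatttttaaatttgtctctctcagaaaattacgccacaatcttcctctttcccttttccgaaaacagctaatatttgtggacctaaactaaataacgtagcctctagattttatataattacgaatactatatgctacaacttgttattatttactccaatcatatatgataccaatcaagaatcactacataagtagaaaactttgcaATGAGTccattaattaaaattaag
ASN1 held CACGTG and TATCCA, ERD5 held ACTCAT as its reverse complement, and BCAT-2 held none of the 3 motifs in this window. The window of BCE2, a called gene described below, was also read and held none. Over the upstream windows of 157 genes called higher, 14% held ACTCAT, 12.1% held CACGTG and 25.5% held TATCCA. Over 16991 tested genes the shares were 11.8%, 7.37% and 14.4%. Over 33 genes of the starvation list described below they were 9.09%, 12.1% and 30.3%. These shares are a description of letters in a window of fixed length, with no test of binding.

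Only 19 of the 158 genes called higher belonged to any gene list, leaving aside cell type markers and families collected after the values were seen. The list of sugar starvation and dark-inducible genes had the highest median of all lists of more than 1 tested gene. This list and the others were chosen with earlier results of these data known, so their counts are descriptions only. Of the 35 starvation genes 33 were tested, and all 33 had differences above 0. Among them 9 were called higher and 0 lower in limma, against 0.921% and 0.0583% of all tested genes. The number called was 3 without WT mock replicate 1 and 11 with the replicate block within each treatment. The median difference was 1.52, against -0.02 over all tested genes, and 27 of the 33 had non-overlapping libraries with Atg3bp1 mock above, against 15.4% of all tested genes. The median was 1.39 without rescaling and 0.93 without WT mock replicate 1. The FPKM of the whole list summed to 387, 1955 and 1533 in WT mock replicates 1, 2 and 3 and to 2983, 2906 and 3069 in Atg3bp1 mock replicates 1, 2 and 3, so that WT mock replicate 1 stood far below the other libraries. Besides ASN1 the called members were STP1, ATL8, BCE2, GDH2, AT1G80440, TPS9, EXL2 and MIOX4. STP1, a proton-coupled monosaccharide importer of the plasma membrane, had 7.84, 49.1 and 46.5 FPKM in WT mock and 151, 139 and 148 FPKM in Atg3bp1 mock (log2 difference 2.54, SE 0.49, limma adjusted p = 0.0332). GDH2, a subunit of mitochondrial glutamate dehydrogenase, had 20, 77.8 and 57.0 FPKM in WT mock and 140, 145 and 116 FPKM in Atg3bp1 mock. TPS9, a class II trehalose phosphate synthase-like protein, had 3.81, 13.7 and 13.8 FPKM in WT mock and 25.8, 26.9 and 25.6 FPKM in Atg3bp1 mock. In all 3 of these genes WT mock replicate 1 was the lowest library and the groups did not overlap.

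Some of the best known dark-inducible genes did not pass the test, and their WT mock libraries were widely spread. SEN1, also known as DIN1, had 2.59, 139 and 44.4 FPKM in WT mock and 202, 187 and 229 FPKM in Atg3bp1 mock. Its log2 difference of 3 was larger than that of ASN1, but its SE was 0.89 and its adjusted p 0.0948 in limma. DIN10, which encodes an enzyme of raffinose metabolism, had 13.2, 172 and 164 FPKM in WT mock against 292, 307 and 333 FPKM (adjusted p = 0.0969 in limma). The groups did not overlap in either gene. AT3G15450, listed at 42.2, 698 and 511 FPKM in WT mock and at 932.03, 951.37 and 1012.58 FPKM in Atg3bp1 mock, had an adjusted p of 0.123 in limma. In the kinase branch of the pathway, AKINBETA1, a regulatory subunit of SnRK1, had overlapping groups, with 5.04, 46.9 and 32.1 FPKM in WT mock and 38.5, 37.8 and 42.6 FPKM in Atg3bp1 mock. The bZIP factor bZIP1 had 14.1, 45.9 and 34.3 FPKM in WT mock and 62.5, 57.3 and 62.8 FPKM in Atg3bp1 mock, a log2 difference of 1.21 (SE 0.30) that missed the threshold with an adjusted p of 0.068 in limma.

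Of the 37 genes of amino acid breakdown, all tested, 5 were called higher and 0 lower in limma, against 0.921% and 0.0583% of all tested genes, with a median of 0.25 over the list. Without WT mock replicate 1 the median was 0.06 and 3 were called, and with the replicate block within each treatment 7 were called. The called genes belong to the pathways of leucine, isoleucine and valine (BCAT-2, BCE2 and MCCA), of proline (ERD5) and of tyrosine (PDS1). BCE2, the acyltransferase subunit of the branched-chain keto acid dehydrogenase and also known as DIN3, had 3.24, 13.7 and 11.3 FPKM in WT mock and 29.7, 27.1 and 29.8 FPKM in Atg3bp1 mock (log2 difference 1.83, SE 0.33). MCCA, the biotinylated subunit of methylcrotonyl-CoA carboxylase in leucine breakdown, had 1.38, 8.90 and 6.64 FPKM against 18.6, 21.0 and 23.9 FPKM (log2 difference 2.1, SE 0.38). PDS1, the hydroxyphenylpyruvate dioxygenase of tyrosine breakdown, differed from these in having a steady level in WT mock, at 23.2, 23.2 and 23.0 FPKM, against 47.7, 39.8 and 47.5 FPKM (a fold change of 2.07, with a limma adjusted p of 0.0383). IVD and MCCB, also of leucine breakdown, were not called. IVD, isovaleryl-CoA dehydrogenase, had 1.59, 9 and 6.27 FPKM against 8.48, 8.83 and 6.84 FPKM, with overlapping groups. MCCB, the partner subunit of MCCA, had 4.4, 11 and 9.21 FPKM against 13.0, 12.9 and 12.8 FPKM (adjusted p = 0.0987 in limma).

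**Figure D3:**
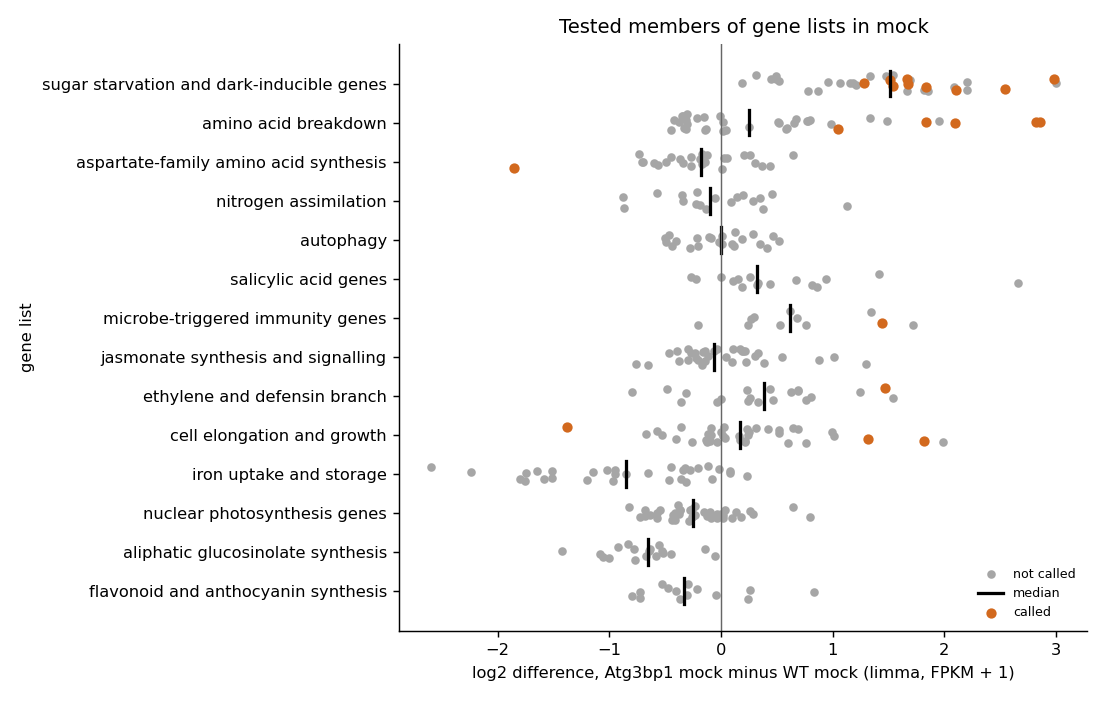
Log2 difference between Atg3bp1 mock and WT mock from limma (x axis) of each tested member of 14 gene lists (y axis). Each point is a gene, orange where called, and black bars are list medians, which run from 1.52 for sugar starvation and dark-inducible genes to -0.85 for iron uptake and storage.

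Several families were then collected by their annotation after the values had been seen, and their counts are descriptions only. Of 44 annotated sugar transporters 21 were tested and 6 were called higher, STP1, STP4, STP14, PMT6, TMT1 and INT1, against 0.921% of all tested genes. Without WT mock replicate 1, 2 were called, and with the replicate block within each treatment 4. PMT6, a polyol and monosaccharide transporter, had 1.88, 9.07 and 2.70 FPKM in WT mock and 34.8, 27.2 and 20.6 FPKM in Atg3bp1 mock (log2 difference 2.67, SE 0.50, limma adjusted p = 0.0328). STP4, a monosaccharide importer of sink tissues, had 4.32, 9.47 and 15.5 FPKM against 36.4, 40.0 and 29.8 FPKM. The 2 transporters for which the vacuole membrane is the known site, TMT1 for hexoses and INT1 for inositol, had smaller log2 differences of 1.39 (SE 0.25) and 1.00 (SE 0.21).

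Families of carbohydrate-active enzymes and of wall proteins were collected in the same way, which tests no theme. Of 9 tested xylosidases and family 32 invertases 4 were called higher, BXL2, XYL4, ATBETAFRUCT4 and AT1G62660, against 0.921% of all tested genes. The median of the family was 1.14, and 1 was called without WT mock replicate 1 and 3 with the replicate block within each treatment. BXL2, a bifunctional xylosidase and arabinofuranosidase, had 2.73, 21.5 and 25.2 FPKM in WT mock and 52.6, 68.6 and 67.2 FPKM in Atg3bp1 mock (log2 difference 2.42, SE 0.53, limma adjusted p = 0.0479). XYL4 had 13.0, 27.6 and 30.3 FPKM against 74.7, 82.3 and 50.3 FPKM, and the vacuolar invertase ATBETAFRUCT4 had 15.6, 25.8 and 22.7 FPKM against 50.6, 56.1 and 52.1 FPKM. Both were steadier in WT mock than BXL2 and kept a clear gap between the groups. Of 34 tested genes annotated as invertase or pectin methylesterase inhibitors 4 were called higher, and of 153 tested extensin, fasciclin, arabinogalactan and hydroxyproline-rich genes 5 were, each against 0.921% of all tested genes. Without WT mock replicate 1 these counts were 1 and 0, and with the block 3 and 7. EXT3, an extensin needed for the new wall of dividing cells, had 142, 255 and 286 FPKM in WT mock and 636, 725 and 454 FPKM in Atg3bp1 mock (log2 difference 1.57, SE 0.30, limma adjusted p = 0.0332). Among other genes, the fasciclin-like FLA9 had a log2 difference of 1.29 (SE 0.25), the chimeric leucine-rich repeat extensin LRX3 one of 1.42 (SE 0.30), and FER, the FERONIA receptor kinase that senses the wall, one of 1.21 (SE 0.25).

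The rest of the 20 largest increases came from varied functions. FTM1, a stearoyl-ACP desaturase, had 0.4, 1.08 and 0.481 FPKM in WT mock and 8.66, 11.2 and 9.16 FPKM in Atg3bp1 mock (log2 difference 2.79, SE 0.35, limma adjusted p = 0.00912). AT1G25400, an uncharacterized protein, had 2.78, 3.20 and 4.52 FPKM against 30.4, 23.8 and 25.3 FPKM, with a log2 difference of 2.73 (SE 0.20, limma adjusted p = 1.04e-04). Both had a narrow range within each label, and AT1G25400 was among the 3 genes, with AtG3BP1 and the zinc finger gene OZF1, that were called under each alternative that left out no single mock or sprayed library. The neighbours AT1G30720 and AT1G30730, berberine-bridge-like oxidases that share a family, had log2 differences of 2.66 (SE 0.53) and 2.62 (SE 0.53), and reads that fit both copies could have been split between them. AT4G37220, annotated as a cold acclimation protein, had 1.16, 2.33 and 1.29 FPKM against 7.62, 9.58 and 15.66 FPKM (log2 difference 2.27, SE 0.25). ACBP3, an acyl-CoA-binding protein, GAT1_2.1, a glutamine amidotransferase, PP2-A13, a phloem-type lectin, and GDPD2, a glycerophosphodiester phosphodiesterase, had log2 differences between 2.16 and 2.38. Of these, GDPD2 had 8.86, 47.7 and 27.6 FPKM in WT mock and 89.5, 101 and 100 FPKM in Atg3bp1 mock. AT1G02660, AT2G30600 and AT5G24640, an alpha/beta hydrolase, a BTB domain protein and an uncharacterized protein, had log2 differences of 2.15, 2.13 and 2.11, and ATL8, a RING ubiquitin ligase, one of 2.1. AT5G24640 was uneven among the libraries labelled Atg3bp1, with 11.7, 3.82 and 2.86 FPKM.

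The 10 genes called lower were few and mixed in function. AK-HSDH II (AT4G19710, chromosome 4, 10724814 to 10729768) makes aspartate kinase-homoserine dehydrogenase, an entry enzyme to threonine and methionine. It had 10.4, 8.17 and 7.5 FPKM in WT mock and 1.89, 1.44 and 1.18 FPKM in Atg3bp1 mock, a log2 difference of -1.86 (SE 0.19, limma adjusted p = 0.00194). UBC11 (AT3G08690, chromosome 3, 2641012 to 2642919), a ubiquitin-conjugating enzyme, had 12.8, 25.6 and 16.2 FPKM against 4.73, 4.55 and 2.88 FPKM, a log2 difference of -1.78 (SE 0.25, limma adjusted p = 0.0138). These were the 2 largest decreases on the log2 scale, and neither gene had overlapping groups. PRE1, a growth-promoting helix-loop-helix protein, had 6.28, 3.78 and 3.43 FPKM against 1.2, 1.11 and 0.613 FPKM. ROC4, a chloroplast cyclophilin, had 321, 417 and 370 FPKM against 150, 143 and 157 FPKM and a log2 difference of -1.16 (SE 0.19, limma adjusted p = 0.0255). Of the other 6, PTAC7, a subunit associated with the plastid RNA polymerase, MT1C, a metallothionein, and SNZ, an AP2 repressor of flowering, had log2 differences of -1.10, -1.04 and -1.16. AT4G23900, a nucleoside diphosphate kinase, AT3G14190, of unknown function, and PPT2, a plastid phosphoenolpyruvate translocator, had log2 differences of -1.10, -1.05 and -1.05.

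The relatives of the leading lower genes were then examined. Of 26 tested genes of aspartate-family amino acid synthesis, only AK-HSDH II was called in limma, against 0.0583% of all tested genes called lower. The list had a median of -0.18. CGS1, the first enzyme specific to methionine, listed by the annotation as MTO1, had 31.4, 71.4 and 59.8 FPKM in WT mock and 24.5, 33.9 and 25.9 FPKM in Atg3bp1 mock (adjusted p = 0.158 in limma). Of 7 tested ubiquitin-conjugating enzymes of the UBC8 group only UBC11 was called, against 0.0583% of all tested genes called lower. All 7 had differences below 0, and the median was -0.51. In 4 every Atg3bp1 mock library lay below every WT mock library, against 12.3% of all tested genes. UBC10 and UBC9 had log2 differences of -0.37 and -0.51. These genes have similar sequences, so fragments that fit several of them could have been assigned differently. Within 1 Mb of AK-HSDH II, 3 of 289 tested genes were called (AK-HSDH II, AT4G18340 and AT4G20830). Within 1 Mb of AtG3BP1 it was 1 of 329, AtG3BP1 itself. Over all tested genes 0.979 per 100 were called, so neither window held clearly more.

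Few defence genes passed the test without bacteria, where limma called 0.921% of all tested genes higher and 0.0583% lower. At such shares a count of 0 in a short list does not set it apart from all tested genes. Of 16 tested salicylic acid genes limma called 0 higher and 0 lower, although 13 had differences above 0 and the median was 0.33. In 5 of them the Atg3bp1 mock libraries all lay above WT mock, and in 0 below, against 15.4% and 12.3% of all tested genes. PR1, the classical salicylic acid marker, had 0.118, 0 and 0.355 FPKM in WT mock and 8.63, 0.607 and 0.711 FPKM in Atg3bp1 mock, so that 1 library stood far above the others (log2 difference 1.42, SE 0.91, limma adjusted p = 0.391). AZI1, a lipid transfer protein of systemic immunity, had 6.74, 8.27 and 3.60 FPKM against 62.2, 47.9 and 20.6 FPKM, with a log2 difference of 2.66 (SE 0.70, limma adjusted p = 0.0766). Its adjusted p was 0.0446 with the replicate block within each treatment, 0.114 with the block over all libraries and 0.12 with high scaling factors as a term, all in limma. PAD4 and EDS1, partners in basal resistance, had overlapping groups and log2 differences of -0.00 and 0.11. EDS16, which makes isochorismate synthase (ICS1), had 0.410, 1.29 and 1.16 FPKM against 0.945, 1.01 and 1.1 FPKM, with overlapping groups. CBP60G, a factor that drives its transcription, had a log2 difference of 0.68 (SE 0.23, limma adjusted p = 0.133), EDS5, an exporter of salicylic acid precursors from plastids, one of -0.27, and BGL2, the glucanase PR2, one of 0.26. SARD1, NIMIN1, WRKY38, WRKY8 and FRK1 did not reach the filter of a mean of 1 FPKM. FRK1, a receptor kinase induced by flagellin, had 0.117, 0.0465 and 0.0447 FPKM in WT mock and 0.305, 0.174 and 0.205 FPKM in Atg3bp1 mock.

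Of 15 genes of microbe-triggered immunity 11 were tested, and 10 had differences above 0, with a median of 0.62. In 6 of 11 the Atg3bp1 mock libraries all lay above WT mock, and in 0 below, against 15.4% and 12.3% of all tested genes. Only SOBIR1 was called higher, 1 of 11 against 0.921% of all tested genes. That call was lost with the replicate block within each treatment (adjusted p = 0.0599 in limma) and without WT mock replicate 1. SOBIR1, the kinase that works with receptor-like proteins, had 2.77, 4.79 and 5.10 FPKM in WT mock and 13.5, 15.9 and 7.71 FPKM in Atg3bp1 mock (log2 difference 1.45, SE 0.30, limma adjusted p = 0.0405). WAK1, a wall-associated kinase, had 0.829, 0.802 and 1.24 FPKM against 3.43, 6.69 and 2.03 FPKM, and AT3G59930, annotated as a defensin-like gene, had 5.34, 14.2 and 6.24 FPKM against 16.2, 21.1 and 50.2 FPKM. Neither passed, with adjusted p of 0.0706 and 0.0963 in limma, although their groups did not overlap. WRKY40, MYB51 and WRKY29, transcription factors of the defence response, had log2 differences of 0.82, 0.76 and 0.68 and were not called. Genes outside these lists that were called and that act in perception or defence were LYK4, a chitin co-receptor, with a log2 difference of 1.25 (SE 0.27), and PEN3, an ABC transporter of pre-invasion defence, with 1.4 (SE 0.27). They were named after their values had been seen. Of 54 tested class III peroxidases, 49 had differences above 0 and the median was 0.50. In 26 of 54 the Atg3bp1 mock libraries all lay above WT mock, and in 0 below, against 15.4% and 12.3% of all tested genes. Only AT2G37130 was called, 1 of 54 against 0.921% of all tested genes, and not without WT mock replicate 1. This peroxidase had 13.8, 29.0 and 29.9 FPKM in WT mock and 87.4, 61.2 and 56.9 FPKM in Atg3bp1 mock. Of 45 tested WRKY genes and 18 tested cysteine-rich receptor-like kinases none was called in limma. Over all tested genes 0.921% were called higher and 0.0583% lower.

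In the hormone lists, EBF2, an F-box protein that removes the ethylene factor EIN3, was called higher. It was the only called gene of 20 tested in the ethylene and defensin branch, against 0.921% of all tested genes. In 9 of 20 the Atg3bp1 mock libraries all lay above WT mock, and in 0 below, against 15.4% and 12.3% of all tested genes. EBF2 had 5.61, 9.96 and 16.8 FPKM in WT mock and 23.2, 30.1 and 27.3 FPKM in Atg3bp1 mock (log2 difference 1.47, SE 0.30, limma adjusted p = 0.0383). Of 33 tested jasmonate genes, with a median of -0.06, none was called in limma. Over all tested genes 0.921% were called higher and 0.0583% lower. Without WT mock replicate 1, EBF2 was not called. LOX2, the lipoxygenase that begins jasmonate synthesis, had 19.1, 14.6 and 11.2 FPKM against 15.6, 11.8 and 6.64 FPKM. Of 38 tested growth genes, with a median of 0.17, 2 were called higher and 1 lower, against 0.921% and 0.0583% of all tested genes. In 8 of 38 the Atg3bp1 mock libraries all lay above WT mock, and in 1 below, against 15.4% and 12.3% of all tested genes. PAR1, an inhibitor of shade growth, and AT5G14920, a gibberellin-regulated protein, had log2 differences of 1.82 (SE 0.29) and 1.32 (SE 0.27). PRE1 had one of -1.38 (SE 0.27). Of these, AT5G14920 and PRE1 were not called without WT mock replicate 1. Of 11 tested GH3 genes, which conjugate auxin to amino acids, BRU6 and WES1 were called higher, against 0.921% of all tested genes. The family was chosen after its values had been seen, and neither gene was called without WT mock replicate 1. Nothing was called in limma among 19 abscisic acid, dehydration and cold genes, 14 touch and rapid stress genes, 15 senescence genes, 22 autophagy genes, 18 nitrogen assimilation genes, 19 circadian clock genes or 9 heat shock genes. With the replicate block within each treatment, CML38 of the touch list and the ammonium transporter gene AT4G13510 of the nitrogen list were called, as were HCHIB of the ethylene list and TCH4 of the growth list. The medians of these lists lay between -0.32 for heat shock and 0.25 for touch and rapid stress. ATG8E, which coats the autophagosome, had 21.7, 97.5 and 85.7 FPKM against 87.7, 65.3 and 65.4 FPKM, with overlapping groups.

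Several further lists had medians below 0 and no called gene in limma, against 0.921% and 0.0583% of all tested genes called higher and lower. Of 333 tested genes annotated as ribosomal proteins without mention of an organelle, 45 had differences above 0 and the median was -0.39. Membership was read from the wording of the annotation, which placed only 9 genes in organelles, so organellar proteins may be among the 333. In 123 of them every Atg3bp1 mock library lay below every WT mock library, against 12.3% of all tested genes. Their FPKM summed to 44750, 54610 and 46440 in WT mock and to 33820, 32150 and 32410 in Atg3bp1 mock. The median stayed below 0 under each scaling, at -0.51 without rescaling and -0.31 after quantile normalization. The 40 nuclear photosynthesis genes had a median of -0.25, which was -0.04 without WT mock replicate 1, and RBCS1A, a small subunit of Rubisco, had 16318, 13425 and 9675 FPKM against 9427, 10103 and 10479 FPKM. The 18 genes of aliphatic glucosinolate synthesis had differences below 0 without exception and a median of -0.66, but BCAT4, which starts the chain elongation of methionine, had its highest value in WT mock replicate 1, with 27.0, 9.29 and 5.67 FPKM in WT mock and 3.43, 3.87 and 2.72 FPKM in Atg3bp1 mock. Without that library the median was -0.19, and that of 14 flavonoid and anthocyanin genes went from -0.33 to 0.42. The 31 tested iron genes had a median of -0.85, and only 3 were above 0. IRT1, the iron importer of the root surface, had 113, 52.2 and 212 FPKM in WT mock and 42.4, 85.5 and 36.2 FPKM in Atg3bp1 mock, with overlapping groups (adjusted p = 0.44 in limma). AT2G30766, the iron signalling peptide IMA3, had 9.74, 42.1 and 16.7 FPKM against 2.11, 7.64 and 1.35 FPKM, without overlap (adjusted p = 0.158 in limma).

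The labelled tissue was checked with markers. The sum over 8 markers of the root endodermis lay between 21.7 and 46.4 FPKM in WT mock and between 35.3 and 65.4 FPKM in Atg3bp1 mock, and photosynthesis genes were abundant in all libraries, as whole seedlings hold both organs. The 6 guard cell markers summed to between 18.7 and 26.7 FPKM in WT mock and between 13.6 and 17.3 FPKM in Atg3bp1 mock, and the 4 markers of dividing cells to between 28.0 and 35.3 FPKM and between 17.9 and 26.4 FPKM. These are sums of FPKM as deposited. On rescaled values the medians were -0.22 for guard cell and -0.29 for dividing cell markers. Every Atg3bp1 mock library lay below every WT mock library for 0 of 6 and 1 of 4 of them, against 12.3% of all tested genes. The median of 7 tested root endodermis markers was 0.61, and 6 were above 0. In 3 of these 7 the Atg3bp1 mock libraries all lay above WT mock, against 15.4% of all tested genes, and in 0 below. None of the 3 sets held a called gene, and the part of these differences in the results was not tested. In whole seedlings, fewer cells of a type and less RNA per cell cannot be told apart. Root hair, vascular, shoot meristem and pollen markers had overlapping sums. Seed markers were absent or nearly so, with the exception of PAP85, a vicilin-like cupin, which had 0.0504, 0.147 and 0.109 FPKM in WT mock and 2.85, 2.73 and 3.89 FPKM in Atg3bp1 mock (log2 difference 1.96, SE 0.25, limma adjusted p = 0.00912). The cruciferins CRU2 and CRU3 and the oleosins OLEO1 and OLEO2 were listed at 0 in all 6 mock libraries.

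The genes called in mock were then looked up in the libraries sprayed with Pst hrcC-, from other seedlings. The lookup is not independent of the choice of genes, because the sprayed libraries entered the spread that limma used in mock. Of the 158 genes called higher, 154 were above 0 there, against 46.1% of all tested genes, and 86 had every Atg3bp1 hrcC library above every WT hrcC library, against 5.2% of all tested genes. Of the 10 called lower, 9 were below 0, against 53.9% of all tested genes, and 8 had every Atg3bp1 hrcC library below every WT hrcC library, against 6.01%. The differences had a median of 0.58 after Pst hrcC- for the genes called higher, against 1.43 in mock, and of -0.63 for the genes called lower, against -1.13 in mock. The genes were chosen for their size in mock, so smaller values elsewhere are given as a description. For 2 of the 168 genes, AtG3BP1 and AK-HSDH II, limma gave an adjusted p of at most 0.05 after Pst hrcC-. The interaction between genotype and treatment passed for 0 of the 17158 tested genes in limma (lowest adjusted p = 0.991, and 755 genes with an unadjusted p of at most 0.05), so for no gene was the genotype difference shown to change with treatment. The mean of ASN1 after Pst hrcC- was 84.5 FPKM under the label WT and 115 FPKM under the label Atg3bp1, with a log2 difference of 0.69. BCAT-2, with 17.7 and 44.7 FPKM, had a log2 difference of 1.55, and AT1G25400 one of 1.41. UBC11 had means of 17.9 and 5 FPKM, a log2 difference of -1.44 without overlap.

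**Figure D4:**
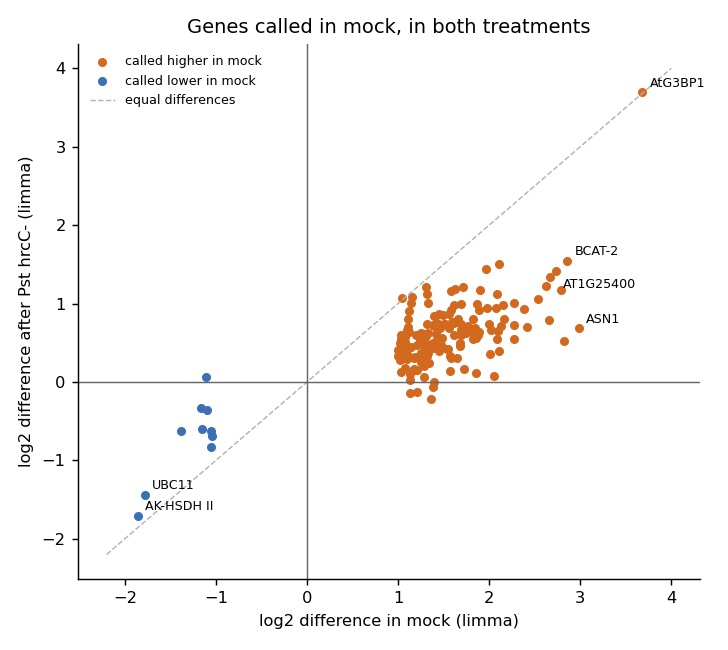
Log2 difference between the libraries labelled Atg3bp1 and WT in mock (x axis) and after Pst hrcC- (y axis), from limma, for the 168 genes called in mock, each point a gene. Genes called higher are orange, genes called lower are blue, and the dashed line marks equal differences. AtG3BP1 and AK-HSDH II lie near the dashed line, while 154 of 158 orange points lie above 0 and most lie below the line.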

How the data were processed

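RNA-seq of 6 mock and 6 Pst hrcC- libraries was analysed from the deposited FPKM. Per the labels, the authors used Trimmomatic for trimming, TopHat for alignment to TAIR10 and Cufflinks for FPKM. Their Cuffdiff results were not used. Absolute depth, and intervals that need it, cannot be had from FPKM. Relative depth came from the steps of genes below 0.15 FPKM, and 14 of 15 mock pairs gave by themselves, within 0.05 on the log2 scale, the offset of the joint fit.

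Columns were mapped to groups by name. Each library was divided by its upper quartile over expressed genes, genes averaging 1 FPKM or more across the 12 libraries were kept, and log2 of FPKM plus a pseudocount of 1 was fitted in limma 3.58.1 (R 4.3.3) with the 4 groups sharing 1 spread, empirical Bayes with a trend, and Benjamini-Hochberg adjustment over all tested genes. Python 3.11.15 and scipy gave the exact permutation test. Names and positions came from TAIR10.1, in which 26703 of 27371 identifiers matched. Lists are described by counts and medians, with no set test. The members and lists were chosen with earlier results of these data known. The naming rule took AtG3BP1, all genes called lower, the 20 largest called increases without overlap, called members of lists, the 2 most abundant members of lists with none, and genes the study measured by qRT-PCR. The text describes part of the abundant members, and any other gene it names (among them SEN1, DIN10, AKINBETA1, bZIP1, IVD, MCCB, CGS1, BCAT4, IMA3, OCT2 and OZF1) was chosen after its values were seen.

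Pairing was checked by correlating deviations from group means across genes. Same-numbered mock libraries gave 0.375, 0.102 and 0.315 for replicates 1, 2 and 3. The reported fit has no replicate block, so the numbers were taken as pairs only in the alternatives with a block. Mock libraries of different number gave from -0.414 to 0.132, so the value of replicate 2 did not stand apart. In the sprayed libraries same numbers gave 0.0423, 0.430 and 0.105, and different numbers up to 0.201. Fits with a replicate block are printed beside the main counts they change. Any pairing by number comes from the data alone. Where replicates were not separate experiments, p-values measure only technical spread. Alternatives covered scaling, pseudocount, filter, trend, the samples in the fit, blocks, a term for high scaling factors, exon length, thresholds and each library left out.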

Additional observations from a re-analysis of the deposited data

How the results depend on the processing

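The direction of all 168 called genes was the same under every alternative in which they were tested, but the counts were not stable. Against 158 higher and 10 lower, limma called 254 and 290 with high scaling factors as a term, 10 and 0 from the mock libraries alone (460 and 79 at an unadjusted p under 0.05), 11 and 4 from the mock libraries alone with a replicate block, 54 and 6 with no filter, 14 and 7 with no rescaling, 82 and 6 with a replicate block over all libraries, and 159 and 17 with a replicate block within each treatment. A pseudocount of 0.1 gave 18 lower, an unadjusted p gave 457 and 80, and an adjusted p with no fold threshold gave 41 lower. Leaving out each library in turn gave from 5 to 314 higher and from 1 to 28 lower. The cause of these shifts was not tested. With 250 kb in place of 1 Mb around AK-HSDH II, 1 gene in place of 3 was called. Read on FPKM as deposited, an alternative chosen after seeing the data, 63 in place of 86 genes called higher had non-overlapping libraries after Pst hrcC-. Among values of single genes and lists, 3891 held under an alternative, 468 lost the call, 19 gained it and 199 moved by more than the replicate spread. Among the counts that answer a comparison, 57 held and 35 moved. Absolute depth is unknown, so low genes such as PR1 and FRK1 have no counting interval.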
